A study of Mus musculus with 9 samples.

Results

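The nuclear subunits of respiratory complexes II to V were examined in midbrain dopamine (DA) neurons with 0, 1 or 2 floxed Dot1l alleles. They were chosen by gene symbol, as the Sdha to Sdhd genes, Cyc1 and all Uqcr, Atp5 and Cox genes (numbers 4 to 8 followed by a, b or c) without a pseudogene mark, so that Cox4 genes are not included. The rule found 46 of the 47729 genes counted, of which 4 belong to complex II, 9 to complex III, 16 to complex IV and 17 to complex V. A further 3 symbols marked as pseudogenes were left out. All 46 genes are annotated as protein coding and lie on 17 chromosomes. The symbols are not identical to the textbook subunits: Cox7a2l encodes a factor that joins complex III to complex IV, and Atp5s and Atp5sl encode proteins named after ATP synthase that are not core subunits of it.

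The series asks what loss of Dot1l, a histone H3 methyltransferase, does to gene expression in these neurons. Every embryo, the controls included, carried 1 Pitx3-Cre allele, which expresses Cre recombinase in midbrain DA neurons, and a Rosa26 reporter that makes YFP once Cre has removed a stop signal. Dot1l(+/+) embryos had no floxed Dot1l allele, Dot1l(fl/+) embryos had 1 and Dot1l(fl/fl) embryos had 2, so that Cre deletes part of the gene from when Pitx3 is switched on. YFP-positive cells were sorted at E15.75, the strain is labelled C57/Bl6, and the study's methods state that embryos were pooled for each library and that each litter gave 1 embryo of each genotype. There were 3 Dot1l(+/+), 3 Dot1l(fl/+) and 2 Dot1l(fl/fl) libraries, and Dot1l(fl/fl) 3 was not analysed here.

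Complex II, succinate dehydrogenase, takes electrons from succinate of the citric acid cycle and hands them to ubiquinone. Complex III passes electrons from ubiquinol to cytochrome c, complex IV passes them on to oxygen, and both complex III and complex IV pump protons across the inner mitochondrial membrane. Complex V, the ATP synthase, lets the protons flow back through a membrane ring and uses the flow to make ATP. All subunits of complex II are encoded in the nucleus, whereas complexes III, IV and V also contain subunits made from mitochondrial DNA. Neurons depend heavily on this machinery, and midbrain DA neurons are known for their sensitivity to its failure.

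Library totals ranged from 13616922 to 43674673 counts, with the least reads in the pair of libraries labelled Dot1l(fl/fl). Levels are given as CPM, in which counts are scaled so that libraries of different depth can be compared. A gene with 0 counts may have had up to 3, which is 0.0687 to 0.220 CPM depending on the library, for counting error only. Dot1l itself was at 84.6 to 105 CPM in the Dot1l(+/+) libraries, at 65.6 to 76.2 CPM in the Dot1l(fl/+) libraries, at 64.9 CPM in Dot1l(fl/fl) 1 and at 99.1 CPM in the library labelled Dot1l(fl/fl) 2. The last value lies within the Dot1l(+/+) range, and reads over a gene with a small deletion do not show whether its protein is made. The 8 markers of DA neurons fixed for this check (among them Th, Ddc, Slc6a3 and Pitx3) summed to 4601 to 5067 CPM in Dot1l(+/+), 4393 to 4814 CPM in Dot1l(fl/+) and 3711 to 4347 CPM in the pair labelled Dot1l(fl/fl). In Dot1l(fl/fl) against Dot1l(+/+), 5 of those 8 (Th, Ddc, Slc18a2, Nr4a2 and En1) had an unadjusted p under 0.05 and a lower level, against 5.03% of all genes. Slc6a3, Pitx3 and Foxa2 were not among them, with log2 fold changes of 0.13 ± 0.11, -0.01 ± 0.12 and -0.14 ± 0.11. The 6 blood genes reported, all tested, summed to 13.7 to 18.1, 11.9 to 18.7 and at most 40.0 CPM in the same order of genotypes, the last in the library labelled Dot1l(fl/fl) 2. Summed levels over all libraries were 3.80 to 14.3 CPM for 5 endothelial markers, 65.5 to 94.1 CPM for 5 microglial markers and 4.22 to 12.6 CPM for 4 markers of oligodendrocyte precursors. They were 217 to 257 CPM for 7 markers of radial glia, most of it Vim, 169 to 216 CPM for 3 glutamatergic markers and 8.33 to 22.1 CPM for 5 muscle and heart genes, of which Tnnt2 was at 0. The 4 GABAergic markers summed to 202 to 219 CPM in Dot1l(+/+), 193 to 225 CPM in Dot1l(fl/+) and 233 to 261 CPM in the pair labelled Dot1l(fl/fl), which lay above all other libraries. Of these, Slc32a1, the vesicular transporter of GABA, had a log2 fold change of 0.37 ± 0.11 in Dot1l(fl/fl) against Dot1l(+/+) (unadjusted p = 0.00325, edgeR adjusted p = 0.269), Gad2 had 0.10 ± 0.13, Gad1 had -0.36 ± 0.41 and Gata3 had -0.14 ± 0.99. The part of these markers in the results below was not tested, and in sorted bulk RNA fewer cells of a type and less RNA per cell cannot be told apart.

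Respiratory chain genes are commonly bound just upstream of their start by nuclear respiratory factor 1, the ETS family factor GABP and YY1, and many carry a CCAAT box. RefSeq promoter windows on GRCm38.p6, from 250 bases before to 50 bases after a start, were matched to 37 of the 46 genes (41 windows). The letters GCGCNTGCG, a form of the nuclear respiratory factor 1 motif, were found on either strand in 39.02% of the 41 windows and in 8.95% of the 20201 windows of protein coding genes. The YY1 letters AAGATGGC were in 12.2% against 3.1%, the ETS letters CCGGAAGT in 9.76% against 5.35%, and CCAAT in 53.7% against 38.04%. No listed motif contains another, though matches may overlap. One stretch is shown for each complex, with a second for complex V, to show what these matches look like; matches are in capitals, and only bases before the RefSeq start that no annotated exon covers are printed, 5′ to 3′ on the strand of the gene. They lie at chr13:74350281-74350308 (minus strand) for Sdha, chr4:116075072-116075220 (minus) for Uqcrh, chr5:115348982-115349108 (minus) for Cox6a1, chr10:128083157-128083272 (plus) for Atp5b and chr11:115419963-115420069 (minus) for Atp5h.
Sdha: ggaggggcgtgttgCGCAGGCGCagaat
Uqcrh: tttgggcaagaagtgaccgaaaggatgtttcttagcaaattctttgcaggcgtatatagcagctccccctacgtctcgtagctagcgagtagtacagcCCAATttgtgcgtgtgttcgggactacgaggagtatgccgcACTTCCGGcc
Cox6a1: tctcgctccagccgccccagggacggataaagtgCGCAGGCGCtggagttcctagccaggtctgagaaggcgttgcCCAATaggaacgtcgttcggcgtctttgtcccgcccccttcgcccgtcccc
Atp5b: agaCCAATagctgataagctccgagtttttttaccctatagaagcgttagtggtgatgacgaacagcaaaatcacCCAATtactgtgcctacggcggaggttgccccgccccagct
Atp5h: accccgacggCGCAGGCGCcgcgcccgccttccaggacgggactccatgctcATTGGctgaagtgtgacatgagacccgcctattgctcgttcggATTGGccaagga

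The first capitals of Sdha, Cox6a1 and Atp5h are the nuclear respiratory factor 1 letters on the opposite strand, those near the end of Uqcrh are the ETS letters, and the shorter runs are CCAAT boxes. The Sdha window held 3 such nuclear respiratory factor 1 matches in all, at -97, -54 and -9 from its start. Among the 31 subunit genes with a window and a mean count of at least 50, the 13 with a nuclear respiratory factor 1 match had a median log2 fold change of 0.21 in Dot1l(fl/fl) against Dot1l(+/+), and the 18 without had 0.28. The corresponding medians were 0.31 with (4 genes) and 0.25 without the YY1 letters, 0.23 (4 genes) and 0.27 for the ETS letters, and 0.27 with and 0.27 without CCAAT. This is a description of letters in fixed windows, and no match says only that these letters are not in the window.

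The subunits stood at widely different levels, compared here as CPM per kb of the principal transcript in Dot1l(+/+) (mean ± SD, n = 3). The catalytic pair of complex V led, with 549 ± 34.5 CPM per kb for Atp5b and 360 ± 7.46 CPM per kb for Atp5a1. Cox6a1 was the most abundant subunit of complex IV at 312 ± 19.0 CPM per kb, Uqcrh that of complex III at 152 ± 25.6 CPM per kb, and Sdhb that of complex II at 120 ± 14.2 CPM per kb. Within complex III the levels per kb ran from 46.6 for Uqcrq to Uqcrh, a narrow span beside that of complexes IV and V.

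**Figure D1:**
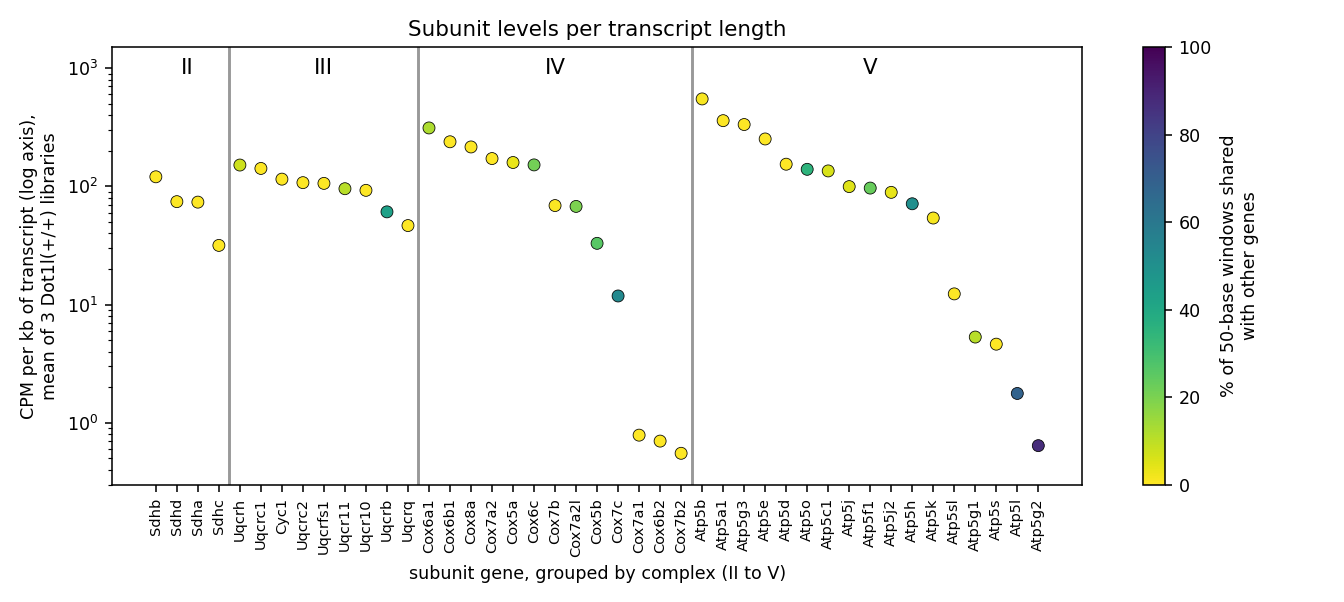
Mean level of each subunit gene in the 3 Dot1l(+/+) libraries, as CPM per kb of transcript on a log axis, grouped by complex. Colour gives the share of 50-base stretches of the transcript that also occur in other genes: Atp5g2, Atp5l, Cox7c and Atp5h have the largest shares, and the first 3 of these are among the lowest of their complexes.

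Tissue isoforms separated clearly. Cox6a2 and Cox8b, the heart and muscle forms, and Cox8c, a testis form, had 0 counts in all 8 libraries, while their general counterparts Cox6a1 and Cox8a were at 169 to 205 CPM and 111 to 130 CPM. Cox7a1, the muscle form paired with Cox7a2, had 12, 0 and 20 counts in Dot1l(+/+), 44, 17 and 16 in Dot1l(fl/+), and 24 and 14 in the pair labelled Dot1l(fl/fl). Cox7a2 was at 92.1 to 139 CPM. The testis forms Cox6b2 and Cox7b2 had at most 27 and 24 counts in a library, and Cox6b1 was at 131 to 184 CPM. The sorted cells thus contained the general and not the muscle or testis forms at more than trace level, in all 3 genotypes.

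The c-ring of ATP synthase is encoded by 3 genes whose mature proteins are the same. Atp5g3 was at 204 to 292 CPM and Atp5g1 at 19.7 to 28.3 CPM, while Atp5g2 had between 0 and 42 counts in a library. Of the 50-base stretches of the principal transcript, 87.4% in Atp5g2, 10.6% in Atp5g1 and 0.0% in Atp5g3 also occur in transcripts of other genes, and how such reads were counted is not given in the sources used here. The low levels of Atp5g2, of Atp5l (68.5% shared, 1 to 41 counts) and of Cox7c (53.0% shared, 3.66 to 10.3 CPM) are uncertain for that reason. In all, 9 of the 46 genes shared 20% or more of their stretches and 24 shared none.

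Of the 46 genes, 43 passed the filter on low counts and were tested, and 38 had a mean count of at least 50; the low 5 (Cox6b2, Cox7a1, Cox7b2, Atp5g2 and Atp5l) are given above as counts and without a fold change. In Dot1l(fl/fl) against Dot1l(+/+) the median log2 fold change of the 43 was 0.23, beside -0.00 for all 17988 genes tested. A log2 fold change above 0 was found in 38 of 43, against 49.5% of all genes. An unadjusted p under 0.05 with a higher level was found in 19 of 43, against 4.24% of all genes, and no subunit had one with a lower level, against 5.03% of all genes. In 20 of 43 both libraries labelled Dot1l(fl/fl) lay above all 3 Dot1l(+/+) libraries, against 12.1% of all genes. None of the 43 passed the adjusted threshold of 0.05 in edgeR's quasi-likelihood test, where 0.0% of all genes did (0 of 17988, with 1667 at an unadjusted p under 0.05), and the smallest adjusted p of a subunit was 0.248. DESeq2 called 2 of 43, Atp5f1 (adjusted p = 0.0154) and Atp5c1 (adjusted p = 0.0283), against 4.77% of the 4736 genes to which it gave an adjusted p; it gave none to 15 of the 43.

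The count of 19 rested on the libraries used. It was 6 without Dot1l(+/+) 1, 7 without Dot1l(+/+) 3, 9 without Dot1l(fl/fl) 1 and 26 without Dot1l(+/+) 2, while the median stayed between 0.19 and 0.31. It was 11 of 42 when the 2 compared genotypes alone were fitted. The subunit transcripts are short, with a median principal transcript of 838 bases beside 2682 bases over all genes tested. The length used for correction was another one, that of all annotated exons of a gene together. Its median was 1831 bases for the subunits tested and 3827 bases over all genes tested. When this exon length and GC content were corrected for in each library by an offset, the median log2 fold change was 0.14 and the count was 3.

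**Figure D2:**
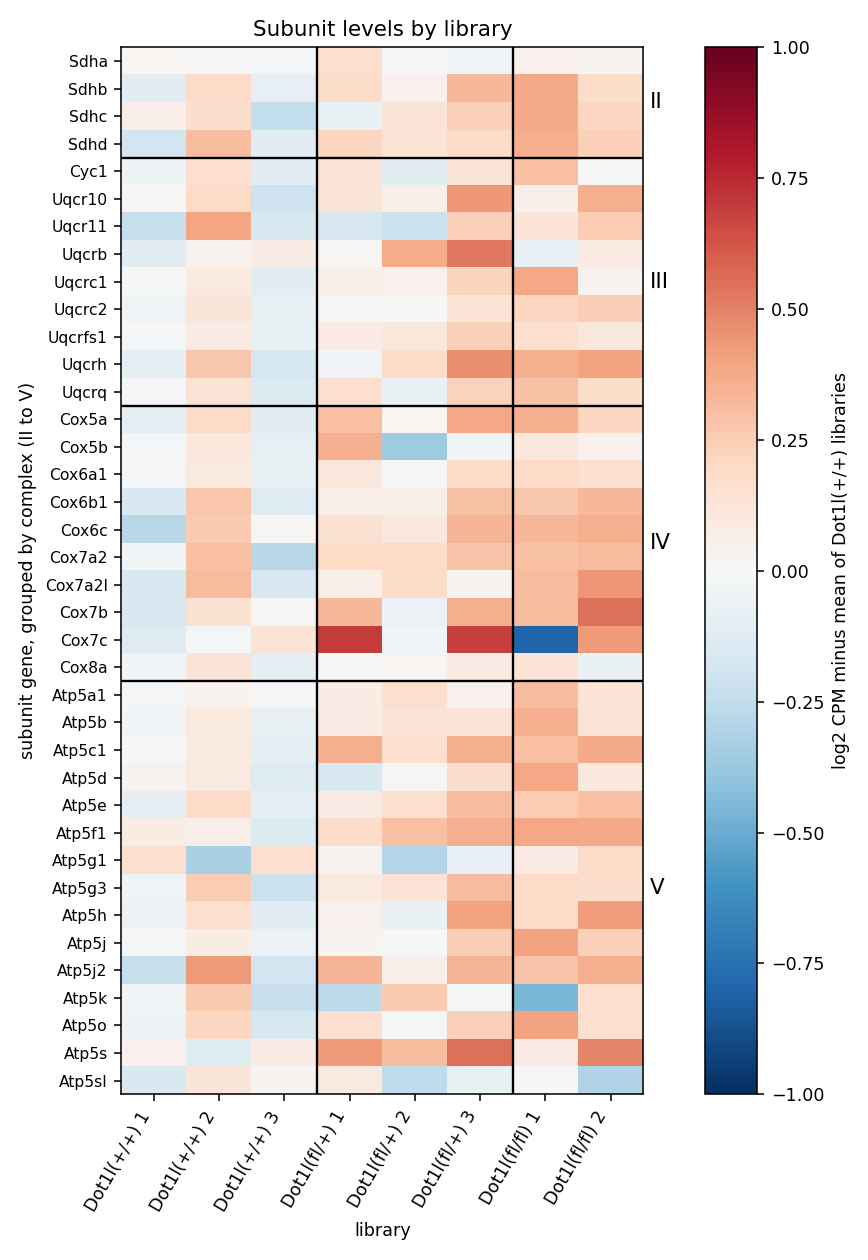
Level of the 38 subunit genes with a mean count of at least 50 in each of the 8 libraries, as log2 CPM minus the mean of the 3 Dot1l(+/+) libraries, with red above and blue below that mean. Most rows are red in the pair labelled Dot1l(fl/fl) and in Dot1l(fl/+) 3, and Dot1l(+/+) 2 is the reddest of its genotype. Cox7c, Atp5k, Atp5sl and Sdha are among the rows that depart from most others. Uqcrb, Cox8a and Cox5b also had fitted values near 0 in Dot1l(fl/fl) against Dot1l(+/+) (0.00, 0.03 and 0.07).

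All 4 complex II genes were tested. Sdha, the flavoprotein that oxidises succinate (ENSMUSG00000021577, GRCm38 chromosome 13 from 74322254 to 74350280), was at 216, 214 and 210 CPM in Dot1l(+/+), 240, 214 and 208 CPM in Dot1l(fl/+), and 220 and 217 CPM in the pair labelled Dot1l(fl/fl). All 8 values are close together, although both Dot1l(fl/fl) values exceed every Dot1l(+/+) value, and the log2 fold change was 0.03 ± 0.10 (SE; edgeR adjusted p = 0.976), or -0.03 with the offset. Sdhb, the iron-sulphur subunit, was at 127, 156 and 130 CPM, then 156, 141 and 172 CPM, then 178 and 156 CPM, with overlap between the genotypes. Its log2 fold change was 0.28 ± 0.12 (unadjusted p = 0.0294, edgeR adjusted p = 0.471).

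The membrane anchors Sdhc and Sdhd, which hold the haem and the ubiquinone site with Sdhb, had log2 fold changes of 0.29 ± 0.13 and 0.28 ± 0.13 in Dot1l(fl/fl) against Dot1l(+/+). Sdhd was at 78.9, 112 and 83.4 CPM in Dot1l(+/+), 105, 99.1 and 104 CPM in Dot1l(fl/+), and 116 and 106 CPM in the pair labelled Dot1l(fl/fl). Dot1l(+/+) 2 lies among the values of the other genotypes and the remaining Dot1l(+/+) libraries lie below them. Thus 3 of 4 complex II genes had an unadjusted p under 0.05 with a higher level (4.24% of all genes), and none passed after adjustment. In 2 of 4 the pair labelled Dot1l(fl/fl) lay above every Dot1l(+/+) library (12.1% of all genes). Whether Sdha differed from the other 3 was not tested.

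In complex III all 9 genes had a fitted log2 fold change above 0 in Dot1l(fl/fl) against Dot1l(+/+) (49.5% of all genes). They ran from 0.00 for Uqcrb to 0.36 for Uqcrh, with a median of 0.21. An unadjusted p under 0.05 with a higher level was found for 2 of 9 (4.24% of all genes). In 4 of 9 the pair labelled Dot1l(fl/fl) lay above every Dot1l(+/+) library (12.1% of all genes). With the offset for length and GC, Uqcrb was at -0.15 and Uqcrfs1 at -0.01. The core proteins Uqcrc1 and Uqcrc2, which face the matrix, had 0.22 ± 0.11 and 0.23 ± 0.10. Uqcrc1 was at 235, 251 and 218 CPM in Dot1l(+/+), 243, 241 and 273 CPM in Dot1l(fl/+), and 305 and 240 CPM in the pair labelled Dot1l(fl/fl). The high value of Dot1l(fl/fl) 1 carried that difference, since the other library lay inside the Dot1l(+/+) range.

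Of the subunits that carry electrons, Uqcrfs1, the Rieske iron-sulphur protein, was at 144, 153 and 137 CPM in Dot1l(+/+), 153, 156 and 171 CPM in Dot1l(fl/+), and 162 and 156 CPM in the pair labelled Dot1l(fl/fl). Its log2 fold change was 0.14 ± 0.11 (edgeR adjusted p = 0.752). Cyc1, which holds the haem that reduces cytochrome c, was at 168, 196 and 161 CPM, then 192, 162 and 190 CPM, then 215 and 175 CPM, and its log2 fold change was 0.16 ± 0.12. The genotypes overlapped for Cyc1 and differed by little for Uqcrfs1.

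Among the small complex III subunits, Uqcrh, the hinge protein that aids the docking of cytochrome c (ENSMUSG00000063882, GRCm38 chromosome 4 from 116066965 to 116075071), had the smallest p of the complex. It was at 77.0, 98.8 and 72.8 CPM in Dot1l(+/+), 80.8, 93.9 and 114 CPM in Dot1l(fl/+), and 105 and 108 CPM in the pair labelled Dot1l(fl/fl). The libraries labelled Dot1l(fl/fl) exceeded every Dot1l(+/+) library, and the log2 fold change was 0.36 ± 0.14 (1.29-fold, unadjusted p = 0.0174, edgeR adjusted p = 0.400). Uqcrb behaved otherwise, with 30.1, 33.3 and 34.2 CPM in Dot1l(+/+), 32.8, 42.0 and 47.0 CPM in Dot1l(fl/+), and 30.7 and 34.6 CPM in the pair labelled Dot1l(fl/fl). Its mean was highest in Dot1l(fl/+) and nearly equal in the other genotypes, and 43.2% of its 50-base stretches occur in other genes. Uqcrq, Uqcr10 and Uqcr11 had log2 fold changes of 0.23, 0.21 and 0.17.

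In complex IV, 13 of 16 genes were tested, and the 10 with a mean count of at least 50 had a median log2 fold change of 0.28 in Dot1l(fl/fl) against Dot1l(+/+). Of those 10, 9 were above 0 (49.5% of all genes). An unadjusted p under 0.05 with a higher level was found for 6 (4.24% of all genes). In 4 of the 10 the pair labelled Dot1l(fl/fl) lay above every Dot1l(+/+) library (12.1% of all genes). With the offset, Cox8a and Cox5b were at -0.04 and -0.02. Cox7b, a small membrane subunit encoded on the X chromosome (ENSMUSG00000031231, GRCm38 from 106015700 to 106022450), had the smallest p. It was at 61.5, 76.1 and 69.0 CPM in Dot1l(+/+), 86.2, 66.0 and 87.5 CPM in Dot1l(fl/+), and 85.4 and 100 CPM in the pair labelled Dot1l(fl/fl). The libraries labelled Dot1l(fl/fl) lay above the Dot1l(+/+) range and Dot1l(fl/+) 2 lay inside it. The log2 fold change was 0.43 ± 0.14 (1.35-fold, unadjusted p = 0.00504, edgeR adjusted p = 0.289).

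Cox5a, a matrix-facing subunit, was at 96.2, 117 and 94.9 CPM in Dot1l(+/+), 126, 104 and 133 CPM in Dot1l(fl/+), and 132 and 119 CPM in the pair labelled Dot1l(fl/fl), with a log2 fold change of 0.29 ± 0.13 (edgeR adjusted p = 0.486). The zinc-binding subunit Cox5b was at 28.02, 30.6 and 26.9 CPM, then 36.4, 22.3 and 27.7 CPM, then 30.6 and 29.3 CPM. The Cox5b groups overlapped and the fitted difference was 0.07 ± 0.19 on the log2 scale. Cox6b1, Cox6c, Cox7a2 and Cox6a1 had log2 fold changes of 0.29, 0.33, 0.28 and 0.18, and Cox8a had 0.03 ± 0.11.

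Cox7c had the lowest log2 fold change of those 10, at -0.07 ± 0.35. It was at 5.83, 6.32 and 7.01 CPM in Dot1l(+/+), 10.3, 6.26 and 10.2 CPM in Dot1l(fl/+), and 3.66 and 8.57 CPM in the pair labelled Dot1l(fl/fl). The libraries labelled Dot1l(fl/fl) lay on either side of Dot1l(+/+), and without Dot1l(fl/fl) 1 the fitted value was 0.42. Cox7a2l, which helps to assemble supercomplexes of complexes III and IV, had a log2 fold change of 0.36 ± 0.14 (edgeR adjusted p = 0.398).

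**Figure D3:**
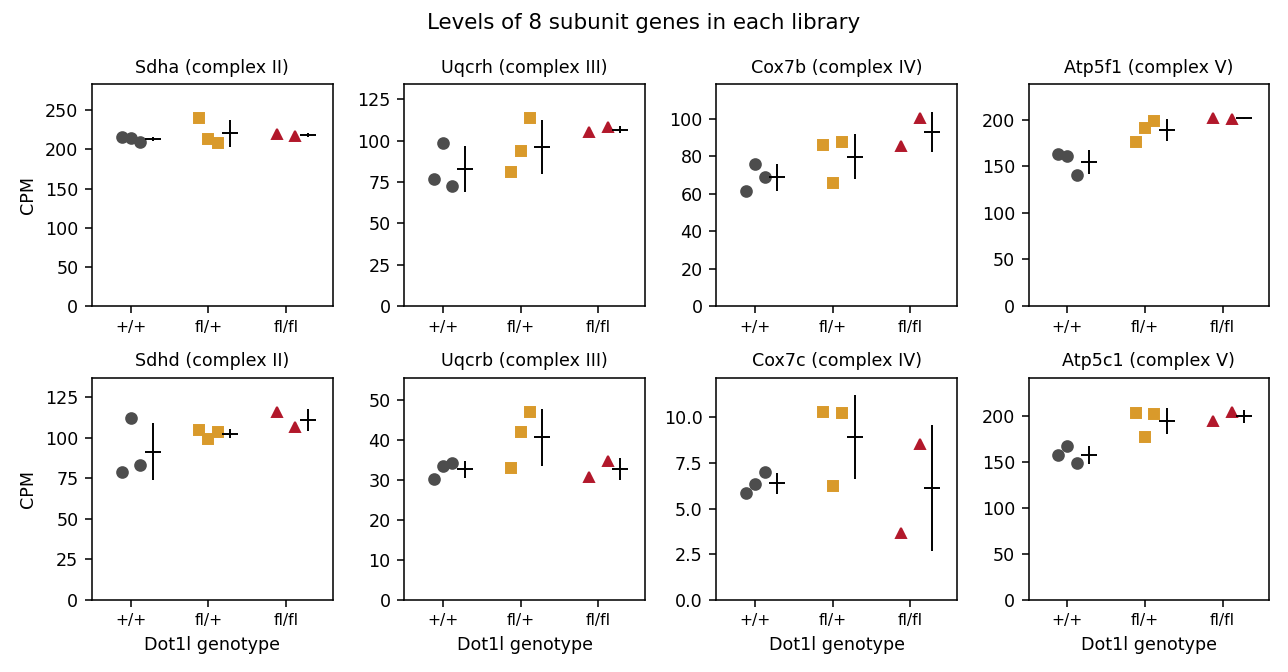
CPM of 8 subunit genes in each library by Dot1l genotype, with 2 genes from each complex. Symbols are libraries and the cross with its bar is the mean ± SD (n = 3, 3 and 2); Atp5f1 and Atp5c1 are above the Dot1l(+/+) libraries in every floxed library, Sdha is level, and Cox7c varies most between the pair labelled Dot1l(fl/fl).

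All 17 complex V genes were tested, and the 15 with a mean count of at least 50 had a median log2 fold change of 0.27 in Dot1l(fl/fl) against Dot1l(+/+). Of those 15, 13 were above 0 (49.5% of all genes). An unadjusted p under 0.05 with a higher level was found for 8 (4.24% of all genes). In 9 the pair labelled Dot1l(fl/fl) lay above every Dot1l(+/+) library (12.1% of all genes). The catalytic head consists of the products of Atp5a1, Atp5b, Atp5c1, Atp5d and Atp5e, which had log2 fold changes of 0.23, 0.25, 0.34, 0.25 and 0.27. All 5 had an unadjusted p under 0.05 and an adjusted p of at least 0.281 in edgeR.

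Atp5b, the beta subunit that forms the catalytic sites, was at 1031, 1127 and 999.8 CPM in Dot1l(+/+), 1115, 1153 and 1159 CPM in Dot1l(fl/+), and 1347 and 1155 CPM in the pair labelled Dot1l(fl/fl). The lower Dot1l(fl/fl) value exceeded the highest Dot1l(+/+) value by little, and the log2 fold change was 0.25 ± 0.08 (unadjusted p = 0.00568, edgeR adjusted p = 0.2995). Atp5d, a subunit of the central stalk, was at 147, 152 and 131 CPM, then 128, 145 and 162 CPM, then 187 and 154 CPM. The Dot1l(fl/+) libraries of Atp5d spanned the whole Dot1l(+/+) range.

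Atp5c1, the gamma subunit that turns inside the head (ENSMUSG00000025781, GRCm38 chromosome 2 from 10056016 to 10080510), was at 157, 167 and 148 CPM in Dot1l(+/+), 202, 177 and 202 CPM in Dot1l(fl/+), and 194 and 204 CPM in the pair labelled Dot1l(fl/fl). Every library with a floxed allele exceeded every Dot1l(+/+) library. The log2 fold changes were 0.34 ± 0.11 in Dot1l(fl/fl) and 0.30 ± 0.09 in Dot1l(fl/+), each against Dot1l(+/+), and these comparisons share the Dot1l(+/+) libraries.

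The peripheral stalk, which keeps the head from turning, is made of the products of Atp5f1, Atp5h, Atp5j and Atp5o. Atp5f1, its b subunit (ENSMUSG00000000563, GRCm38 chromosome 3 from 105942698 to 105960099), had the smallest p of all 43 genes. It was at 163, 162 and 140 CPM in Dot1l(+/+), 176, 191 and 199 CPM in Dot1l(fl/+), and 202 and 202 CPM in the pair labelled Dot1l(fl/fl). The 3 genotypes did not overlap and followed the number of floxed alleles, and the log2 fold change in Dot1l(fl/fl) against Dot1l(+/+) was 0.38 ± 0.11 (1.30-fold, unadjusted p = 0.00163, edgeR adjusted p = 0.248). Of its 50-base stretches, 23.2% occur in other genes. Atp5h, Atp5j and Atp5o had log2 fold changes of 0.31, 0.32 and 0.28.

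Of the c-ring genes, Atp5g3 was at 229, 282 and 204 CPM in Dot1l(+/+), 252, 260 and 292 CPM in Dot1l(fl/+), and 271 and 266 CPM in the pair labelled Dot1l(fl/fl), with a log2 fold change of 0.17 ± 0.12. Atp5g1 was at 27.6, 19.7 and 27.8 CPM, then 25.3, 20.1 and 23.4 CPM, then 26.2 and 28.3 CPM, with a log2 fold change of 0.12 ± 0.20. The genotypes overlapped for both. Atp5j2 and Atp5k, small subunits at the membrane, had 0.30 ± 0.15 and -0.13 ± 0.23, and Atp5k was at 14.4 and 22.2 CPM in the pair labelled Dot1l(fl/fl) beside 16.9 to 23.7 CPM in Dot1l(+/+). The non-core Atp5s had 0.30 ± 0.27, and Atp5sl had the lowest log2 fold change of the complex with -0.14 ± 0.18 at 29.4 and 23.8 CPM beside 26.4 to 31.9 CPM.

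**Figure D4:**
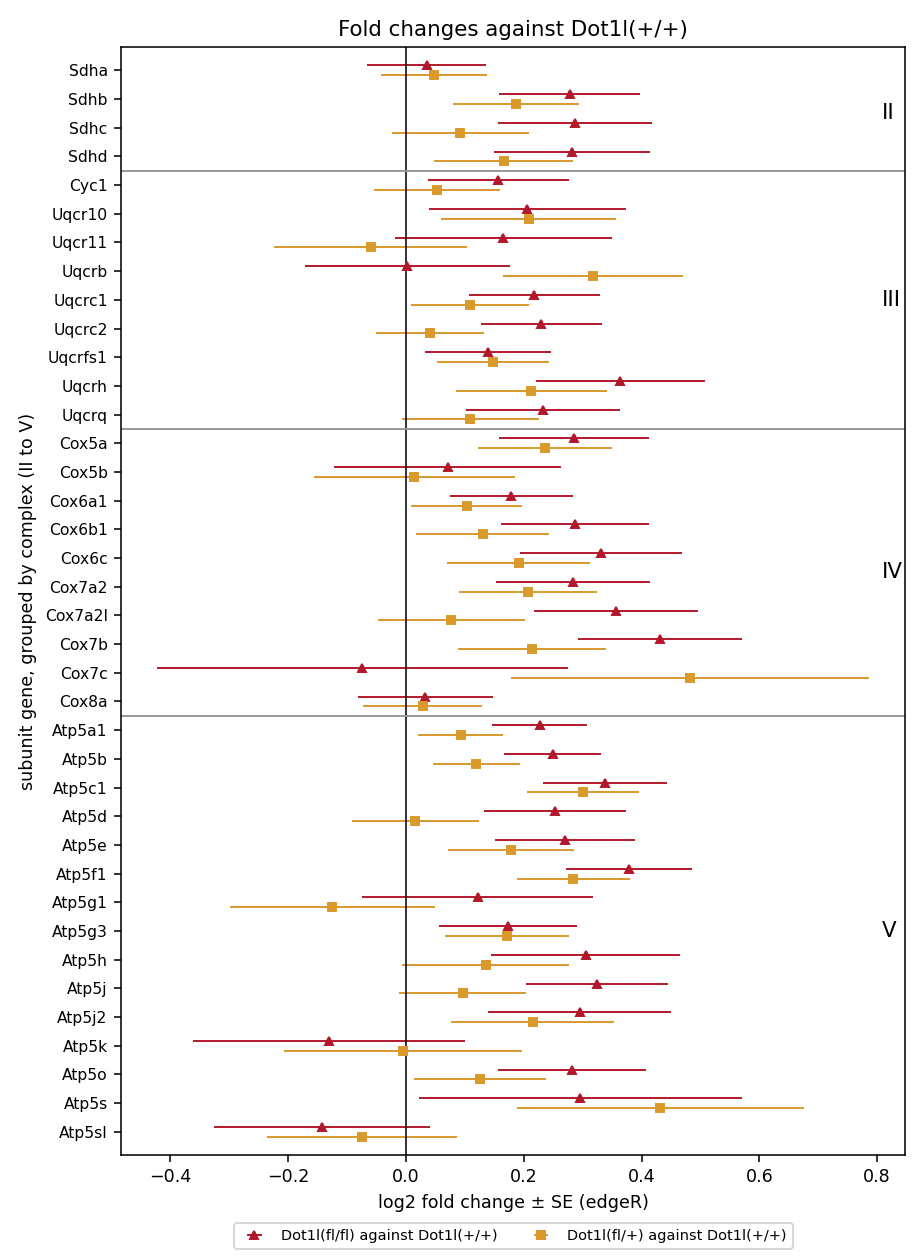
Log2 fold change ± SE from edgeR of the 38 subunit genes with a mean count of at least 50, for Dot1l(fl/fl) (triangles) and Dot1l(fl/+) (squares) against the same Dot1l(+/+) libraries. In Dot1l(fl/fl), 35 of 38 lie above 0, up to 0.43 for Cox7b, and none passed after adjustment.

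In Dot1l(fl/+) against Dot1l(+/+) the differences were smaller, with a median log2 fold change of 0.12 over the 43 genes and -0.01 over all genes. A value above 0 was found in 35 of 43 (49.0% of all genes), an unadjusted p under 0.05 with a higher level in 4 of 43 (2.16% of all genes) and with a lower level in none (2.86% of all genes), and all 3 libraries above all 3 controls in 5 of 43 (5.56% of all genes). The 4 were Atp5c1, Atp5f1, Cox5a and Uqcrb, with log2 fold changes of 0.30, 0.28, 0.24 and 0.32. None passed after adjustment in edgeR, where 0.0% of all genes did (903 at an unadjusted p under 0.05), or in DESeq2, where 0.0% did. Without Dot1l(+/+) 2 the median was 0.22 and the count at an unadjusted p was 16; without Dot1l(+/+) 3, without Dot1l(fl/+) 3 and with the offset for length and GC the medians were 0.07, 0.08 and 0.07 and the counts 1, 2 and 2.

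For Dot1l(fl/fl) against Dot1l(fl/+) the median log2 fold change was 0.11 over the 43 genes and 0.00 over all genes, and 34 of 43 were above 0 (50.2% of all genes). No subunit had an unadjusted p under 0.05 with a higher level, against 1.86% of all genes, or with a lower level, against 2.16%, and 6 of 43 had both libraries labelled Dot1l(fl/fl) above all 3 Dot1l(fl/+) libraries, against 10.2%. None passed after adjustment in edgeR (0.0% of all genes, with 723 at an unadjusted p under 0.05) or DESeq2 (0.00556%). The lowest p was that of Cox7a2l, with a log2 fold change of 0.28 ± 0.14 (edgeR adjusted p = 0.998), and Uqcrb had -0.32 ± 0.17. Without Dot1l(fl/fl) 1 the median was 0.06, and with the offset it was 0.07.

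Taken by library, the median over the 43 genes of each gene's log2 CPM less its Dot1l(+/+) mean was -0.03, 0.15 and -0.09 in Dot1l(+/+), 0.09, 0.04 and 0.24 in Dot1l(fl/+), and 0.29 and 0.21 in the pair labelled Dot1l(fl/fl). Dot1l(+/+) 2 and Dot1l(fl/+) 3 were the highest of their genotypes in each complex, and both libraries labelled Dot1l(fl/fl) were above every Dot1l(+/+) library in each complex. Dot1l(fl/+) 3 exceeded at least 1 library labelled Dot1l(fl/fl) in every complex. The spread within genotypes (pooled SD 0.106) is of the order of the median log2 fold changes that involve Dot1l(fl/+) (0.12 and 0.11). It is smaller than that of Dot1l(fl/fl) against Dot1l(+/+) (0.23), which rests on 2 Dot1l(fl/fl) libraries.

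**Figure D5:**
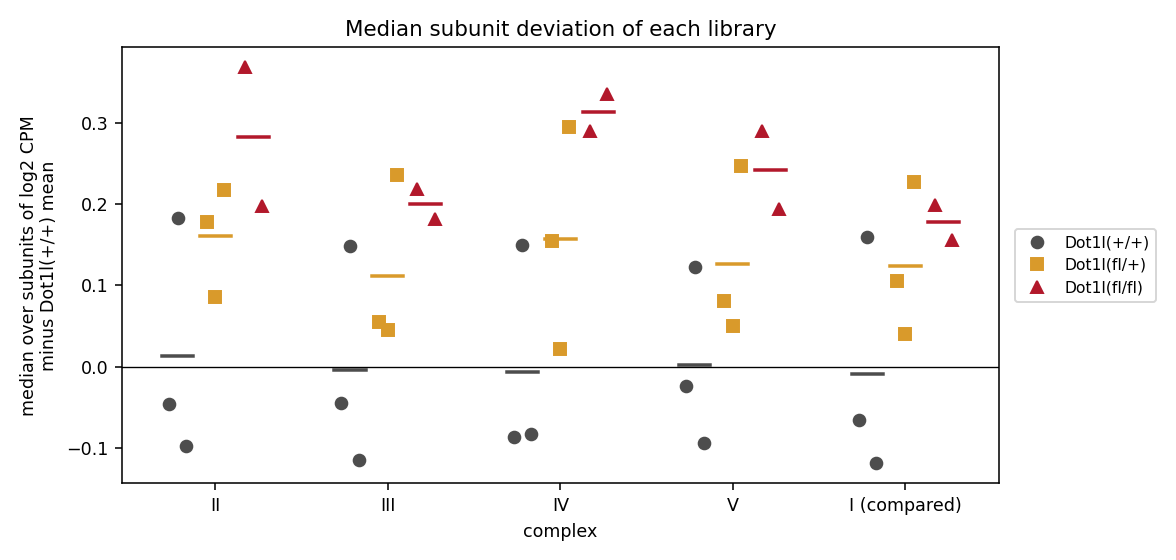
Median over the tested subunits of a complex of log2 CPM less the Dot1l(+/+) mean, 1 symbol per library, with the mean of each genotype as a line; complex I is plotted for comparison. In each of complexes II to V the pair labelled Dot1l(fl/fl) lie above the Dot1l(+/+) libraries, while Dot1l(fl/+) 3 reaches their level.

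As summed levels, complex V took the largest part of the counts of these genes, with 3152 ± 211 CPM in Dot1l(+/+) (SD, n = 3), 3449 ± 87.0 CPM in Dot1l(fl/+) (n = 3) and 3743 ± 252 CPM in the pair labelled Dot1l(fl/fl) (n = 2). Complex III summed to 1027 ± 94.2, 1104 ± 87.6 and 1182 ± 64.5 CPM in the same order. Complex IV summed to 914 ± 113, 1008 ± 67.5 and 1086 ± 1.87 CPM, and complex II to 543 ± 46.2, 587 ± 20.7 and 619 ± 35.2 CPM. Each sum was highest on average with 2 floxed alleles and lowest with none. Dot1l(+/+) and Dot1l(fl/+) libraries overlapped in each sum, and the pair labelled Dot1l(fl/fl) lay above all other libraries for complexes IV and V only. All 46 genes together held 0.523% to 0.616% of the counts in Dot1l(+/+), 0.597% to 0.648% in Dot1l(fl/+), and 0.688% and 0.651% in the pair labelled Dot1l(fl/fl).

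Complex I, the entry point for electrons from NADH, is the most similar neighbour. Its 36 tested nuclear subunits had medians of 0.19, 0.13 and 0.05 on the log2 scale in the comparisons of 2 against 0, 1 against 0 and 2 against 1 floxed alleles. The corresponding values of complexes II to V were 0.23, 0.12 and 0.11. Unadjusted p-values under 0.05 with a higher level were found for 5 of the 36 complex I genes in Dot1l(fl/fl) against Dot1l(+/+) (4.24% of all genes). A lower level with such a p was found for 1, Ndufs5 (5.03% of all genes), with a log2 fold change of -1.50 ± 0.34 (edgeR adjusted p = 0.160). The difference between complex I and the others was not tested.

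The partners of these subunits were less uniform. Of 6 further complex IV and V genes listed outside the symbol rule, 4 were matched by symbol, and Cox4i1 was not among them. Ndufa4, a subunit once assigned to complex I, had a log2 fold change of 0.17 ± 0.14 in Dot1l(fl/fl) against Dot1l(+/+). Atpif1, the inhibitor of ATP synthase, had 0.26 ± 0.12. Usmg5, a small ATP synthase subunit, had 0.58 ± 0.23 (unadjusted p = 0.0213, edgeR adjusted p = 0.432). Cox4i2 was at or near 0. Cytochrome c (Cycs), which carries electrons from complex III to complex IV, was at 4.44, 2.96 and 5.71 CPM in Dot1l(+/+) and 7.05 and 4.68 CPM in the pair labelled Dot1l(fl/fl), with 0.43 ± 0.37. These Cycs values overlap, and 28.2% of its 50-base stretches occur in other genes.

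Of 37 tested assembly factors of complexes II to V, 27 had a log2 fold change above 0 in Dot1l(fl/fl) against Dot1l(+/+) (49.5% of all genes). The median was 0.04. An unadjusted p under 0.05 with a higher level was found for 5 (4.24% of all genes) and with a lower level for none (5.03% of all genes). The 4 complex II factors had the highest median of the 4 groups of factors (0.51), with Sdhaf1 at 0.60 ± 0.25 and Sdhaf4 at 0.52 ± 0.24; these proteins help to mature Sdhb and Sdha. Uqcc2, which assists in making the mitochondrially encoded cytochrome b, had 0.57 ± 0.16 (unadjusted p = 0.00196, edgeR adjusted p = 0.254), and Coa6, a copper handling factor of complex IV, had 0.69 ± 0.28. The 3 tested complex V factors lay between -0.01 and 0.09. None passed after adjustment.

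Of 12 regulators of respiratory genes, 4 had a log2 fold change above 0 in Dot1l(fl/fl) against Dot1l(+/+) (49.5% of all genes), with a median of -0.09. An unadjusted p under 0.05 was found with a lower level for 1 (5.03% of all genes) and with a higher level for none (4.24% of all genes). Sp1, a general activator of promoters rich in GC, had -0.40 ± 0.18 (unadjusted p = 0.0293, edgeR adjusted p = 0.471), and Nrf1, the nuclear respiratory factor itself, had 0.21 ± 0.16. Of the subunits of complexes III to V made from mitochondrial DNA, mt-Cytb was at 2625 to 3199 CPM in Dot1l(+/+), with a log2 fold change of -0.02 ± 0.09. The level of mt-Co1 was 3344 to 3792 CPM in Dot1l(+/+), with a log2 fold change of 0.13 ± 0.07. Of the 50-base stretches of mt-Co1, 51.1% also occur in other annotated genes, so its level is uncertain as well. The genes mt-Co2, mt-Co3 and mt-Atp6 were below 1 CPM in every library and mt-Atp8 was at 0; 99.5% or more of the 50-base stretches of the first 3 occur in other annotated genes, so these low counts are uncertain.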

How the data were processed

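RNA from YFP-sorted midbrain DA neurons was sequenced by the authors from a directional library kit; per the study's methods reads were mapped to GRCm38.p4. Which aligner and counter were used, and how strand and multiply mapping reads were handled, is not given in the sources used here. The authors deposited whole-number counts per Ensembl gene and library, not normalised, together with 3 tables of their own comparisons, of which only identifiers and symbols were read. The submitters' processing notes name bcl2fastq 2.17, Trimmomatic 0.30 and DESeq2 1.10.1. Of the identifiers, 47310 (99.1%) and all 46 subunit genes were found in the GENCODE annotation.

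Groups and replicate numbers were taken from sample titles. Tests used edgeR 4.0.16 (R 4.3.3, limma 3.58.1; quasi-likelihood F test, TMM factors), and filterByExpr kept 17988 genes. The 3 genotypes shared 1 fit with no covariate, and the Benjamini-Hochberg adjustment covered every tested gene (threshold 0.05). Library medians used log2 CPM with a prior count of 2. DESeq2 1.42.0 was run on the same genes as an alternative. The script was tested on simulated counts. Per the study's methods each litter gave 1 embryo of each genotype to the pools, which the paper describes as pairing. No source used here says that libraries with equal numbers share litters, so the replicate number was not a term of the model. The main tests thus do not use this pairing, and a block on replicate number was run as an alternative. Replicates differed by more than counting noise (chi-square per degree of freedom of 17.8 to 43.2). Shared sequence was the share of 50-base stretches of the principal transcript found in transcripts of other genes.

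The subunits, the other lists and the tests were chosen with earlier results of these data known. The rule for named genes was every subunit by complex, with values per library for preset lead subunits (Sdha, Sdhb, Uqcrc1, Uqcrfs1, Cyc1, Cox5a, Cox5b, Cox7c, Atp5b, Atp5d and the c-ring genes) and, per complex, for the genes with the smallest p and the lowest fold change. Isoform pairs and up to 3 examples per partner list were added, and Sdhd, Uqcrb, Atp5c1, Atp5k and Nrf1 were named in more detail after their values were seen. Alternatives were each library left out, DESeq2, RLE and upper quartile factors, 2 genotypes alone, a filter at a mean count of 50 or none at all, an offset for the length and GC content of exons, a block on replicate number, and that block with the offset. A listed marker gene is not reported here.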

Additional observations from a re-analysis of the deposited data

How the results depend on the processing

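No subunit passed the adjusted threshold in any comparison under any alternative run, except that DESeq2 called 2 (Atp5f1 and Atp5c1, each with the same direction) in the comparison of 2 with 0 floxed alleles, and 0 in the others. The median log2 fold change of the subunits kept its sign in all 3 comparisons under every alternative. With each library left out in turn it ran from 0.19 to 0.31 (2 against 0 floxed alleles), from 0.07 to 0.22 (1 against 0) and from 0.06 to 0.14 (2 against 1), where leaving out a library of Dot1l(fl/fl) leaves a lone library that is assumed to vary like the others. RLE and upper quartile factors, no filter and the 2 genotypes alone moved no median by more than 0.02. The count of subunits with an unadjusted p under 0.05 and a higher level (2 against 0), 19, was 11 of 42 with the 2 genotypes alone. Over all genes in that comparison, edgeR called 0 at the adjusted threshold in the main fit. It called 75 without Dot1l(+/+) 2, 106 with no filter and 2 with the filter at a mean count of 50. With the replicate block it called 6, and with that block and the offset 20. DESeq2 called 226.

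The labels give the genotypes the same replicate numbers. Over all genes tested, r of deviations ran from -0.03 to 0.04 for equal numbers and from -0.05 to 0.04 for others. Over the subunits r ran from -0.51 to 0.43 for equal numbers and from -0.43 to 0.51 for others. Deviations were taken from the genotype mean, so those of the pair labelled Dot1l(fl/fl) are equal and opposite. Each r with a library of that pair is thus the negative of the r with its partner. These ranges therefore cannot decide whether same-numbered libraries deviate together. With the replicate block the medians were 0.24, 0.13 and 0.11, no subunit was called, and the counts at an unadjusted p under 0.05 with a higher level were 13, 2 and 0, beside 19, 4 and 0 without it. With the block and the offset for length and GC together they were 0.13, 0.09 and 0.03, and the medians of complexes II, III and IV in Dot1l(fl/fl) against Dot1l(+/+) were 0.12, 0.08 and 0.13; with the offset alone that of complex IV was 0.12.

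Genes near 0 in Dot1l(fl/fl) against Dot1l(+/+) changed sign. With the offset, Uqcrb was at -0.152, Sdha at -0.025, Cox8a at -0.042, Uqcrfs1 at -0.005 and Cox5b at -0.018; with offset and block they were at -0.080, -0.077, -0.103, -0.035 and -0.097, and mt-Co1 was at -0.031. Uqcrb was at -0.002 with no filter. With each library left out in turn the range was -0.088 to 0.086 for Uqcrb, -0.025 to 0.206 for Atp5g1, -0.472 to 0.151 for Atp5k, -0.080 to 0.134 for Cox8a, -0.803 to 0.421 for Cox7c, -0.001 to 0.295 for Cyc1 and -0.309 to 0.000 for Atp5sl. It was -0.107 to 0.062 for mt-Cytb and -0.548 to 0.062 for Dot1l. The causes were not tested. The pair of Dot1l(fl/fl) libraries were the shallowest. For the 38 subunits with a mean count of at least 50, SEs of 0.08 to 0.35 on the log2 scale stood beside differences of at most 0.43 with all libraries fitted.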
